A study of Mus musculus with 4 samples.

Results

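The chloride intracellular channel (Clic) genes were described in sorted basal epithelial cells of the mouse ventral prostate. The members are the 5 genes of the deposited table whose symbol is Clic1, Clic3, Clic4, Clic5 or Clic6, out of 49671 genes in all. The family was chosen by measured levels, because Clic4 was higher in both duct libraries than in both tip libraries, so the tip and duct values of the members are given as a description, without a test. Ventral lobes of 20 young male mice were cut into tips, the distal ends of the gland, and ducts, and 2 libraries were made from the basal cells of each. Basal cells were sorted as high for EpCAM and for CD49f, the integrin alpha 6 subunit, after cells carrying CD45, CD31 or CD140a had been removed. The age is postnatal day 13 in the 4 titles and days 10 to 12 in the age field, and the groups rest on the titles because the cell type field calls every library tip. No genotype, strain or treatment is stated for either group. It is also not stated whether the libraries within a group stem from different mice, so any spread between them may be technical.

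CLIC proteins are small proteins with a fold shared with glutathione transferases and glutaredoxins. They occur as soluble proteins in the cytoplasm and can also associate with membranes, where a channel activity has been described, and several of them work at the cortical actin skeleton together with ezrin, radixin and moesin. Clic4 is also known to move to the nucleus and to support Smad signalling downstream of TGF-beta, and in endothelial cells it takes part in the formation of tubes.

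The members lie on 4 chromosomes. In GRCm38, Clic1 occupies chromosome 17 from 35049966 to 35058749, Clic3 chromosome 2 from 25456838 to 25458776, Clic4 chromosome 4 from 135213969 to 135272814 on the minus strand, Clic5 chromosome 17 from 44188584 to 44280172, and Clic6 chromosome 16 from 92485736 to 92541243 (GENCODE M21). No member shares exon sequence with a gene on the opposite strand. The longest run of identical bases between transcripts of any pair of members was 11 to 23 bases, the 23 being shared by Clic4 and Clic5. The length of the reads is not stated in the sources used here.

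The stretch before the Clic4 gene is shown because Clic4 carried most of the family's reads and the difference between tip and duct. It covers the 196 bases upstream of the annotated gene start, chr4:135272815-135273010 on the minus strand (GRCm38.p6, RefSeq promoter table), written 5′ to 3′ with matches to the GC box in capitals.
Clic4 upstream: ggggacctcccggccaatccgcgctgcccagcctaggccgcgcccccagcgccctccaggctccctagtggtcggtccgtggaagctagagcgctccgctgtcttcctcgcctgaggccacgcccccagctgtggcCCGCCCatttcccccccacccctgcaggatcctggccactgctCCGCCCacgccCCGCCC
Of its bases 74.5% were G or C, against a median of 51.5% over 32851 promoter windows of the same length, and it held 16 CpG dinucleotides. The GC box (GGGCGG, searched on both strands) matched 3 times. At least 1 match occurred in 23.9% of all windows and at least 3 in 4.08%. The CCAAT box (CCAAT) matched 1 time, as at least 1 time in 27.8% of windows. The TATA box (TATAAA), the AP-1 site (TGANTCA) and the E-box (CACGTG) had 0 matches in this window, and occurred in 9.0%, 5.42% and 4.20% of windows. These motifs do not overlap one another in the sequence shown, and a match describes letters only. Each compared window was the first 196 bases of a RefSeq stretch with 250 bases upstream and 50 bases downstream of the start. The Clic4 bases were cut from its stretch in the same way, and end at its GENCODE start. The windows thus stop short of the RefSeq start, and the shares do not cover the bases next to it.

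Clic4 was the most abundant member and the one with the widest separation between tip and duct. Its level was 406 CPM (reads per 1000000 reads of a library) in tip 1, 507 CPM in tip 2, 1168 CPM in duct 1 and 1069 CPM in duct 2. Both duct libraries were above both tip libraries, and within each group the libraries lay close together. The means were 456 ± 71.3 CPM at the tips and 1119 ± 70.0 CPM in the ducts (SD, n = 2 each), which rest on 1467 and 3455 reads. The ratio of a duct to a tip library ran from 2.11 (95% exact counting interval 1.94 to 2.29) for duct 2 over tip 2 to 2.88 (2.62 to 3.16) for duct 1 over tip 1. Within groups the ratio was 1.25 (1.12 to 1.39) for tip 2 over tip 1 and 1.09 (1.02 to 1.17) for duct 1 over duct 2. These intervals hold the sampling of reads alone. Nothing states that the deposited values count single molecules, so the intervals may be too narrow. Of 17865 tested genes, those with a mean of at least 1 CPM, 259 (1.45%) had a lower duct value at least 2 times the higher tip value, genes without a tip read included. In bulk libraries, fewer cells of a type and less RNA per cell cannot be told apart.

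On the log2(CPM + 1) scale the difference of Clic4, tip minus duct, was -1.30 ± 0.26 (SE). SE values here and below come from the limma fit, which borrows spread from other genes. The SD of Clic4 itself within groups was 0.17. The median tested gene stood at 0.20 on this scale, so Clic4 was -1.50 relative to it. With TMM scaling, which adjusts each library for its composition, the difference was -1.50, the median gene stood at 0.03 and Clic4 was -1.52 relative to it.

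Clic1, a member known from the phagosomes of macrophages and from oxidative stress responses, was the other gene higher in both duct libraries. It measured 59.1 CPM in tip 1, 88.4 CPM in tip 2, 91.9 CPM in duct 1 and 90.95 CPM in duct 2. Tip 1 was low and the other libraries were nearly level. The means were 73.8 ± 20.7 CPM at the tips and 91.4 ± 0.636 CPM in the ducts (SD, n = 2 each). Duct 1 over tip 2 gave a ratio of 1.04 (counting interval 0.822 to 1.31), so those libraries could not be told apart at this depth. The log2 difference, tip minus duct, was -0.33 ± 0.32 (SE), and -0.05 without tip 1. Higher in both duct libraries were thus Clic4, for which the family was chosen, and 1 of the other 3 tested members, beside 11.1% of all tested genes. Nothing can be read from this count. With TMM scaling the same genes, Clic4 and Clic1, were higher in both duct libraries, beside 18% of tested genes.

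**Figure D1:**
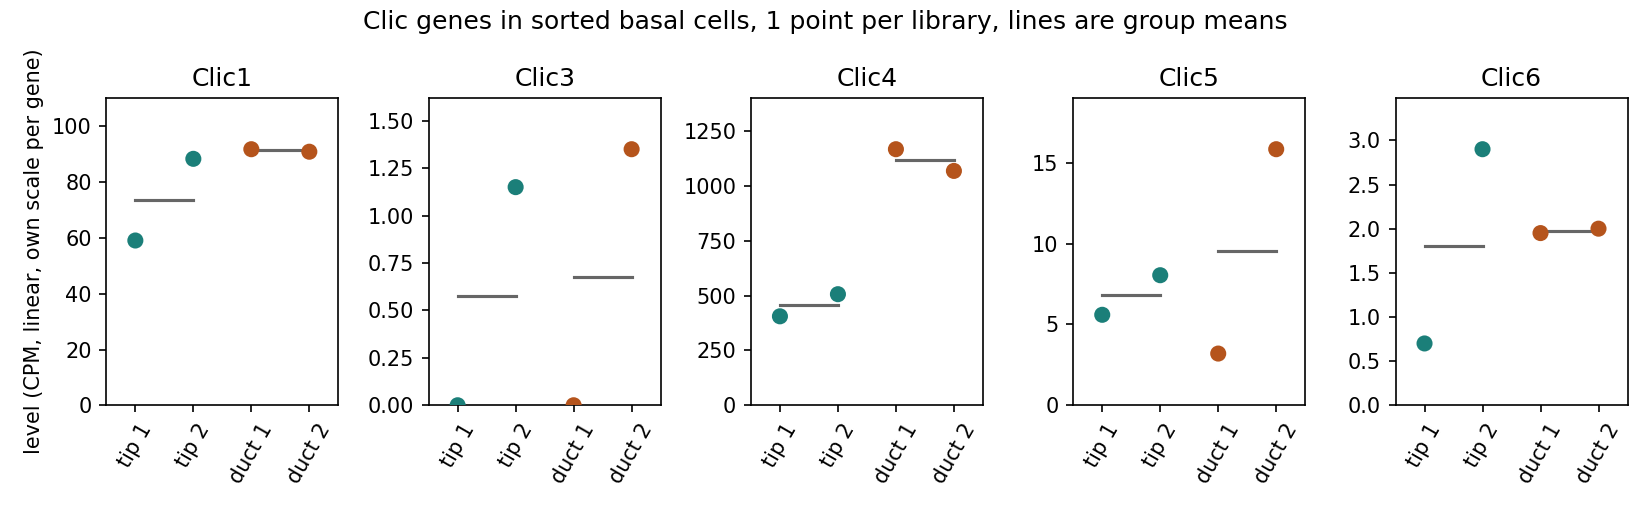
Level of each Clic gene in CPM (vertical axis, linear, with its own scale for each gene) in the 4 libraries, with 1 point per library, tip in green, duct in orange, and a line at each group mean. Clic4 separates, with 406 and 507 CPM at the tips and 1168 and 1069 CPM in the ducts, while Clic3, Clic5 and Clic6 overlap.

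The remaining members were low. Clic5, an actin-linked member of hair cell bundles and podocytes, measured 5.60 CPM in tip 1, 8.05 CPM in tip 2, 3.2 CPM in duct 1 and 15.9 CPM in duct 2. The duct libraries held both the lowest and the highest value, with a ratio of 4.96 for duct 2 over duct 1 (counting interval 1.85 to 16.6), from 24 and 5 reads. The log2 difference, tip minus duct, was -0.12 ± 0.71 (SE), 0.88 without duct 2 and -1.12 without duct 1. The SD of Clic5 itself within groups was wider than this SE, at 1.03. Clic6, also called parchorin and known from secretory epithelia, measured 0.70 and 2.90 CPM at the tips and 1.95 and 2.00 CPM in the ducts. It rested on 6 reads in each group, with a log2 difference of -0.21 ± 0.71 (SE), and 0.39 without tip 1. Clic3, which takes part in integrin recycling, had 0 and 2 reads in tip and 0 and 2 reads in duct, and at a mean of 0.625 CPM it was below the filter for testing. A count of 0 allowed up to 2.08 CPM in tip 1 and up to 1.91 CPM in duct 1. Differences of Clic3 and Clic6 between tip and duct were not detectable at this depth.

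Shares within the family do not depend on the scaling of the libraries. Of the family's reads, Clic4 made up 86.1% in tip 1 (exact 95% interval 83.3% to 88.6%), 83.5% in tip 2 (81.1% to 85.6%), 92.3% in duct 1 (91.1% to 93.5%) and 90.7% in duct 2 (89.2% to 92.0%). The duct shares were above both tip shares. The intervals hold the sampling of reads alone, and those of libraries of the same group overlapped. Over all genes, however, libraries of a group differed by more than sampling noise. Clic1 made up 12.5% and 14.6% in tip and 7.26% and 7.71% in duct. There were 6.87 Clic4 reads per Clic1 read in tip 1 (5.46 to 8.73), 5.73 in tip 2 (4.83 to 6.85), 12.7 in duct 1 (10.7 to 15.2) and 11.8 in duct 2 (9.88 to 14.1). Shares and ratios both rest on the contrast that chose the family. Summed over the 5 members, the family stood at 471 and 607 CPM at the tips and 1265 and 1179 CPM in the ducts.

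**Figure D2:**
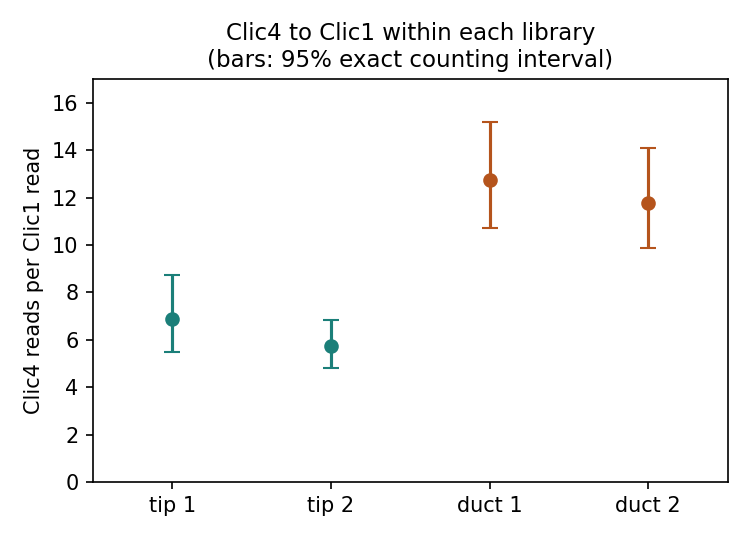
Clic4 reads per Clic1 read (vertical axis, a ratio) in each of the 4 libraries, with the 95% exact counting interval as bars. The tip libraries sit at 6.87 and 5.73 and the duct libraries at 12.7 and 11.8. The bars hold the sampling of reads alone, and the family was chosen on this contrast.

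To compare levels between genes, CPM was divided by the length of each gene's merged exons in kilobases. The order of the mean level per kilobase was Clic4, Clic1, Clic5, Clic3 and Clic6. Clic4 averaged 119.8 CPM per kilobase and Clic1 45.9, and Clic4 was above Clic1 in 4 of 4 libraries. Clic1 was above Clic5, at 0.931 CPM per kilobase, in 4 of 4 libraries. Clic5 was above Clic3 (0.618) in 3 of 4 libraries and Clic3 above Clic6 (0.482) in 2 of 4, so the lower 3 members could not be ordered beyond their spread. Among 17821 tested genes with a length, Clic4 per kilobase was above 97.1% and 97.7% in the tip libraries and above 99.0% and 99.2% in the duct libraries. Clic1 was above 93.5% to 96.3%, and Clic5 above 10.6% to 35.6%. Merged exons include retained introns, and with the length of the longest coding transcript the order was the same and Clic4 stood 3.39 times above Clic1, against 2.61 times with merged exons.

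Markers of the sorted population and of other cell types varied within the groups. All 12 basal markers were tested and present, with Krt14 at 512 to 1744 CPM and Itga6 at 474 to 1389 CPM, and 0 of the 12 were higher in both duct libraries, beside 11.1% of tested genes. Krt5, Trp63 and Jag2, or 25% of the list, were higher in both tip libraries, beside 28.5% of tested genes, and with TMM scaling 1 of the 12 was. Krt5 (651 and 513 CPM at the tips, 490 and 148 CPM in the ducts) and Trp63 (830 and 281 CPM at the tips, 263 and 136 CPM in the ducts) were lowest in duct 2, and Jag2 measured 307 and 211 CPM at the tips and 177 and 94.9 CPM in the ducts. Of the sorting markers, Epcam measured 138 and 227 CPM at the tips and 483 and 159 CPM in the ducts. Pdgfra, the gene of CD140a, measured 192.5 and 231 CPM at the tips and 42.1 and 650 CPM in the ducts. Pecam1, the gene of CD31, measured 31.3 and 25.3 CPM at the tips and 12.15 and 62.6 CPM in the ducts. Dcn, the largest part of the fibroblast sum in each library, stayed at 2002 to 2656 CPM. Summed levels of 16 fibroblast markers were 4335 and 5408 CPM at the tips and 2621 and 7875 CPM in the ducts. Those of 14 endothelial markers were 114 and 106 CPM at the tips and 48.8 and 340 CPM in the ducts. Those of 12 smooth muscle markers were 2124 and 3686 CPM at the tips and 929 and 3725 CPM in the ducts, and those of 12 immune markers 226 and 107 CPM at the tips and 87.6 and 104 CPM in the ducts. Most of the immune sum was Cd3e (131 and 88.4 CPM at the tips, 61.3 and 68.6 CPM in the ducts), which overlaps exons on the opposite strand. Ptprc, Laptm5 and Lyz2 stood at 12.6, 11.9 and 21.6 CPM in tip 1 and at 0.60 to 4.65 CPM in the other libraries, and the mean deviation of the list was 1.17 (log2) in tip 1 and -0.68 to -0.05 elsewhere. The sums of 15 luminal markers were 1773 and 2218 CPM at the tips and 3577 and 1409 CPM in the ducts. Those of 8 neural and glial markers were 42.5 and 64.4 CPM at the tips and 22.5 and 195 CPM in the ducts. Pancreatic islet genes summed to 345 CPM in duct 2 and to at most 1.15 CPM elsewhere, with Sox18, Tyrobp and Fcer1g at or near 0 among endothelial and immune markers.

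Fibroblast, endothelial and smooth muscle sums were lowest in duct 1 and highest in duct 2, and Clic4 measured 1168 and 1069 CPM in these libraries. The luminal sum was highest in duct 1 and lowest in duct 2, and the basal sum likewise. The log2 difference of Clic4, tip minus duct, was -1.24 without duct 1 and -1.36 without duct 2. From lowest to highest, Clic5 ordered the libraries as duct 1, tip 1, tip 2 and duct 2, which is also the order of the fibroblast sum. The part of other cell types in the Clic4 and Clic5 values was not tested.

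**Figure D3:**
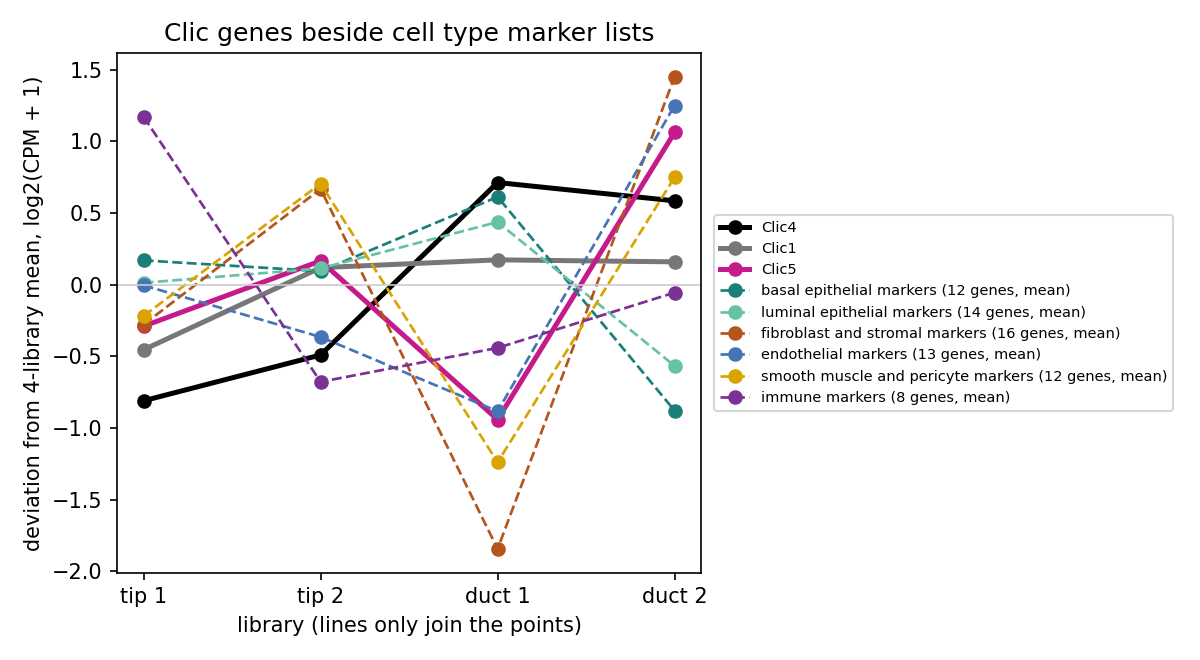
Deviation from the mean of the 4 libraries on the log2(CPM + 1) scale (vertical axis) for Clic4, Clic1 and Clic5 and for marker lists. Means over the tested genes of the basal, luminal, fibroblast, endothelial, smooth muscle and immune lists are drawn, in the 4 libraries. The neural and glial list and the pancreatic islet list are not drawn, and stand at 1.33 and 3.74 in duct 2. Clic4 is above its mean in both duct libraries, by 0.71 and 0.59, whereas the fibroblast list stands at -1.84 in duct 1 and 1.45 in duct 2.

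Genes that work with or beside the CLIC proteins were read from 5 lists. Over all 17865 tested genes limma called 0 (0%) at an adjusted p of 0.05, with a smallest adjusted p of 0.667 and 1326 genes at an unadjusted p under 0.05. edgeR on the recovered reads called 0 with 1048 genes at an unadjusted p under 0.05, and DESeq2 called 2 with 416. No list gene passed in the limma fit, so the genes below are given as values. Member counts of non-overlapping groups are to be read beside 11.1% of tested genes higher in both duct libraries and 28.5% higher in both tip libraries. With TMM scaling these shares were 18% and 20.4%.

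Among 25 tested partners and cortical actin linkers, 6 were higher in both duct libraries and 5 in both tip libraries, with 9 and 3 under TMM scaling and a median log2 difference of 0.12. Ezr, the gene of ezrin, measured 245 and 228 CPM at the tips and 527 and 269 CPM in the ducts. Hivep2, whose product Schnurri-2 binds Clic4 on its way to the nucleus, measured 295 and 465 CPM at the tips and 890 and 557 CPM in the ducts. Both genes were higher in the duct libraries, chiefly in duct 1. Rdx, the gene of radixin, overlapped, with 281 and 214 CPM at the tips and 263 and 193 CPM in the ducts. Msn, the gene of moesin, measured 149 and 127 CPM at the tips and 154 and 311 CPM in the ducts. Rdx and Msn are named here beside Ezr after their values were seen. The endosomal protein gene Ehd4 measured 86.9 and 109 CPM at the tips and 172 and 149.6 CPM in the ducts. Tgm2, a transglutaminase that secreted Clic3 acts on, went the other way, with 368 and 211 CPM at the tips and 101 and 129 CPM in the ducts. Exons of Ezr, Hivep2, Msn and Tgm2 overlap genes on the opposite strand. No strand setting of the counting is stated in the sources used here.

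Clic4 has been placed in the TGF-beta response, and 25 genes of that pathway were tested. Of these 9 (36%) were higher in both duct libraries and 1 (4%) in both tip libraries, with a median log2 difference of -0.24 beside 0.20 for all tested genes. Under TMM scaling the counts were 12 and 0, with a median of -0.43 beside 0.03. Pmepa1, a feedback inhibitor of the pathway, measured 32 and 49.95 CPM at the tips and 148 and 111 CPM in the ducts, a log2 difference of -1.65 ± 0.34 (SE). Smad7, an inhibitory Smad, measured 45.9 and 33.9 CPM at the tips and 59.95 and 85.7 CPM in the ducts. The response gene Ctgf measured 45.9 and 62 CPM at the tips and 86.1 and 87.7 CPM in the ducts, and the signalling gene Smad2 45.9 and 62 CPM at the tips and 100.2 and 65.3 CPM in the ducts. The groups of these genes did not overlap, and for Smad2 tip 2 and duct 2 were close. Ctgf overlaps exons of a gene on the opposite strand. Their adjusted p in limma ran from 0.667 to 0.699. An unadjusted limma p under 0.05 was found for 2 of the 25, beside 1326 of all 17865 tested genes. The same held for 3 of 25 tested partners and 4 of 36 other channels and transporters. In the glutathione transferase and p53 lists it held for 6 of 27 and 6 of 22.

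Other chloride channels and transporters were mixed in direction. Of 36 tested, 5 were higher in both duct libraries and 11 in both tip libraries, with 8 and 7 under TMM scaling and a median log2 difference of 0.07. Ano1, a calcium-activated chloride channel, measured 300 and 317 CPM at the tips and 207 and 148 CPM in the ducts. The potassium-chloride cotransporter Slc12a7 measured 53.6 and 41.4 CPM at the tips and 17.3 and 25.1 CPM in the ducts. Ttyh3, of the tweety family, measured 54.3 and 63.2 CPM at the tips and 23 and 35.6 CPM in the ducts, and the anoctamin Ano10 16.7 and 19.6 CPM at the tips and 7.05 and 11.9 CPM in the ducts. These 4 genes were higher in both tip libraries, with log2 differences of 0.81 to 1.14, and 0.62 to 0.95 with TMM scaling. Ano6, a scramblase and channel of the anoctamin family named here after its values were seen, measured 246 and 321 CPM at the tips and 618 and 395 CPM in the ducts. Its log2 difference was -0.81, and -1.01 with TMM scaling, and its exons overlap genes on the opposite strand.

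Genes of the glutathione transferase and glutaredoxin fold, which CLIC proteins share, had 2 of 27 tested members higher in both duct libraries and 10 in both tip libraries. Under TMM scaling the counts were 3 and 8, and the median log2 difference was 0.29. Gstt3, a theta class transferase, measured 19.5 and 10.4 CPM at the tips and 3.85 and 0.70 CPM in the ducts. Gstt1 measured 11.2 and 13.8 CPM at the tips and 4.50 and 5.30 CPM in the ducts, and the zeta class gene Gstz1 18.8 and 18.4 CPM at the tips and 5.15 and 7.25 CPM in the ducts. The glutaredoxin gene Glrx was higher in duct, with 7.65 and 13.2 CPM at the tips and 20.5 and 37.6 CPM in the ducts. Theta class genes are similar in sequence and Gstz1 overlaps genes on the opposite strand, which leaves some doubt about these counts.

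Clic4 is also known as a p53 target. Of 22 tested p53 genes, 5 were higher in both duct libraries and 6 in both tip libraries, with 6 and 5 under TMM scaling and a median log2 difference of 0.12. The anti-proliferative gene Btg2 measured 890.2 and 568 CPM at the tips and 314 and 257 CPM in the ducts. Ccng1, the gene of cyclin G1, measured 95.3 and 70.1 CPM at the tips and 35.1 and 40.9 CPM in the ducts. Sesn1, of the stress-induced sestrins, measured 54.3 and 44.8 CPM at the tips and 21.7 and 26.4 CPM in the ducts, and Ei24 50.8 and 28.7 CPM at the tips and 22.4 and 15.9 CPM in the ducts. These 4 genes were higher in both tip libraries. Higher in both duct libraries were Fas, Aen, Plk2, Sesn2 and Cdkn1a, the gene of the cell cycle inhibitor p21, which are named here after their values were seen. Cdkn1a measured 98 and 142 CPM at the tips and 290.2 and 170 CPM in the ducts, a log2 difference of -0.91, and -1.11 with TMM scaling. Ei24 and Cdkn1a overlap exons on the opposite strand.

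**Figure D4:**
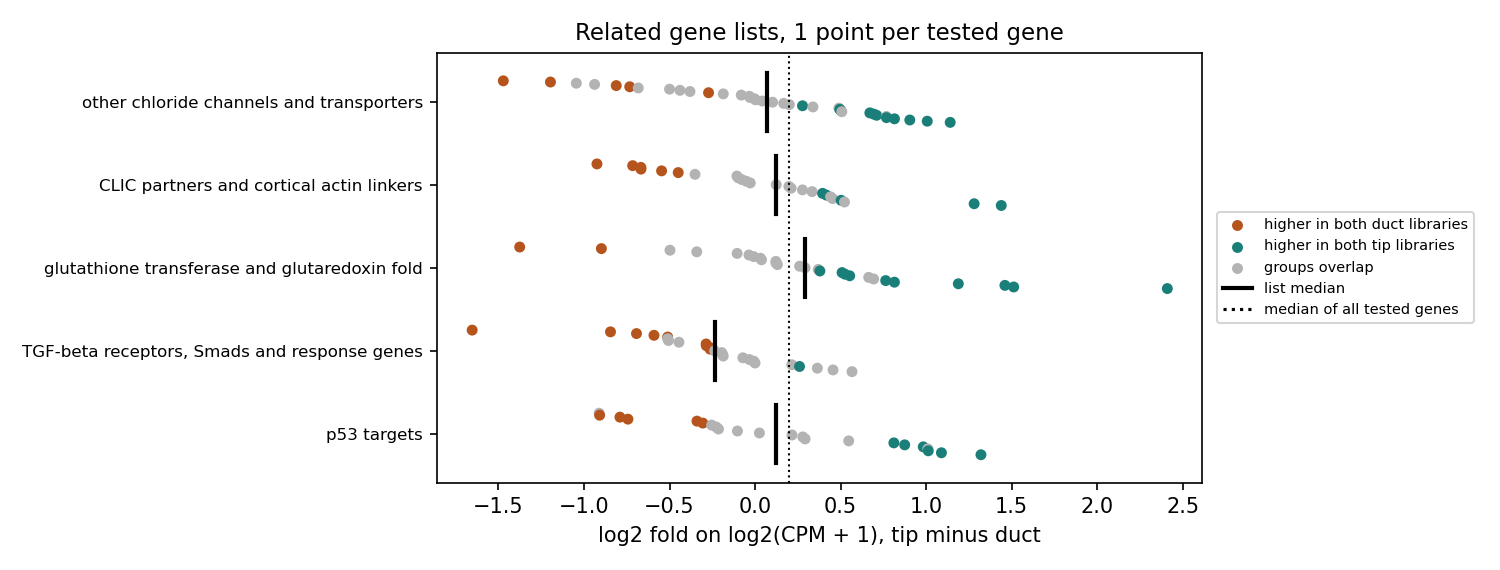
Log2 difference, tip minus duct, on the log2(CPM + 1) scale (horizontal axis) for each tested gene of the 5 related lists, coloured by whether the groups overlap, with the list median as a bar and the median of all tested genes (0.20) as a dotted line. The TGF-beta list has its median at -0.24 and 9 of 25 genes higher in both duct libraries, beside 11.1% of all tested genes. The glutathione transferase list has 10 of 27 higher in both tip libraries, beside 28.5% of all tested genes. With TMM scaling these counts were 12 and 8, beside 18% and 20.4%.

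Genes with the pattern most like that of Clic4 over the 4 libraries were found by the distance between log2(CPM + 1) values centred on each gene's mean, among 6566 genes. The 5 nearest were Cd55, Nup210l, Pprc1, Foxn2 and Ppa1, at distances of 0.098 to 0.27, where the median gene was at 1.62 and 32 genes were within 0.5. Cd55, a complement regulator, measured 21.6 and 28.7 CPM at the tips and 65.1 and 56 CPM in the ducts. Pprc1, a transcriptional coactivator, measured 64.7 and 81.5 CPM at the tips and 172 and 153 CPM in the ducts. Both overlap exons on the opposite strand. For Clic1 the nearest were Samd4b, Eif2s2 and Polg, at 0.11 for each, with 711 genes within 0.5, so that pattern was shared by many genes. With 4 libraries such likeness is a description.

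**Figure D5:**
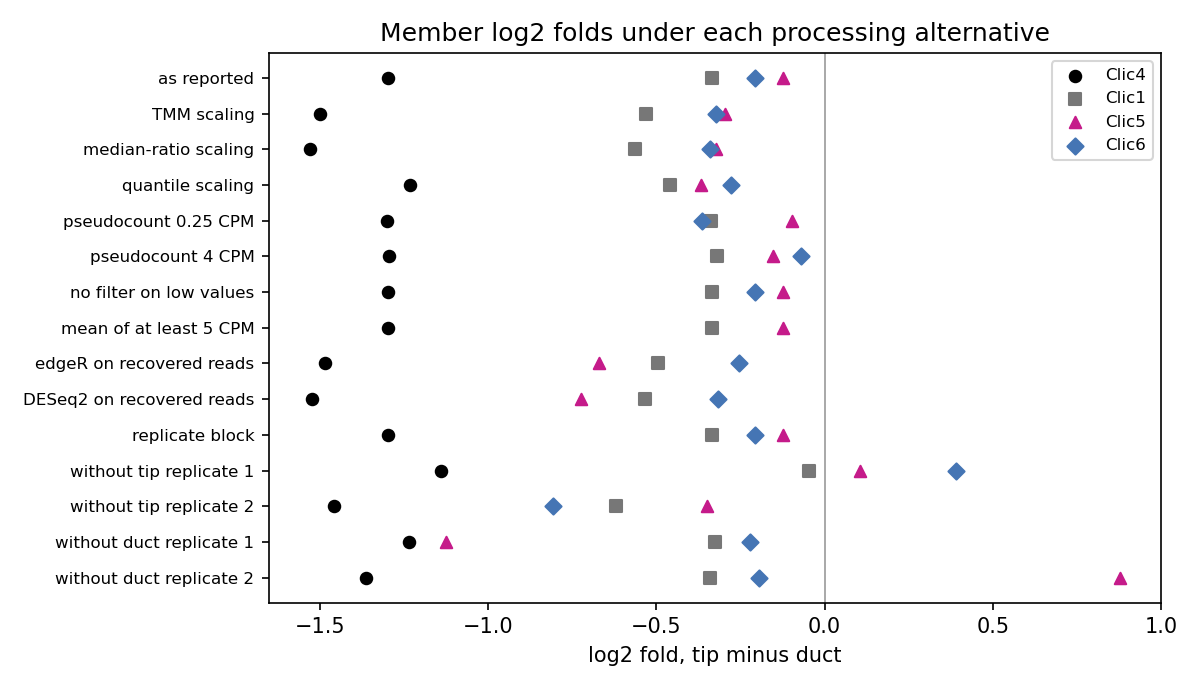
Log2 difference, tip minus duct (horizontal axis), of the 4 tested Clic genes as reported and under 14 processing alternatives (vertical axis). Clic6 has 13 of these, because its mean was below the alternative filter of 5 CPM. Clic4 stays between -1.53 and -1.14, whereas Clic5 runs from -1.12 to 0.88.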

How the data were processed

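The values are deposited as signal: the reads of each gene, brought to a library total of 20000000 and rounded up, as the values themselves show; the authors' steps name STAR, HTSeq and GRCm38 (mm10), per the submitters' processing notes. Their versions, the annotation release and any strand setting are not stated in the sources used here. Dividing by the step of each library gave whole reads, within 0.1 read, for 100% of values, and totals of 1439004 (tip 1), 1742531 (tip 2), 1568194 (duct 1) and 1517982 (duct 2). Libraries of a group differed by more than sampling noise. CPM is the deposited value divided by 20. Genes averaging 1 CPM or more were tested with limma 3.58.1 (R 4.3.3) on log2(CPM + 1), which understates changes of low genes, with variance trend and robust moderation, 2-sided and Benjamini-Hochberg adjusted. edgeR 4.0.16 and DESeq2 1.42.0 on recovered reads were alternatives. Members and lists were chosen with earlier results of these data known. Named list genes were up to 4 per list with non-overlapping groups, a mean of at least 5 CPM and the largest log2 difference. Lengths came from GENCODE M21.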

Additional observations from a re-analysis of the deposited data

How the results depend on the processing

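With each library left out in turn, the Clic4 log2 difference, tip minus duct, ran from -1.46 to -1.14. It was -1.50 with TMM scaling, -1.53 with median-ratio scaling, -1.49 in edgeR and -1.52 in DESeq2. With a library left out Clic5 ran from -1.12 to 0.88 (0.11 without tip 1, 0.88 without duct 2) and Clic6 from -0.81 to 0.39 (0.39 without tip 1). The count of members higher in the duct libraries was 2 to 4 with a library left out, the 4 being without duct 1. That 4 includes Clic3, which was below the filter, at 1.15 CPM in tip 2 and 1.35 CPM in duct 2. The share of all genes was not computed with a library left out, so nothing can be read from these counts. When low genes were kept, limma called 62 higher and 32 lower in tip, of which 2 and 1 were in the fixed lists, and DESeq2 called 2 lower. With a library left out the calls were 0 to 698 higher and 0 to 311 lower, and in the lists 0 to 8 and 0 to 6. They were 362 and 311 without duct 1 and 698 and 206 without duct 2, fits that take the spread of the remaining duct library from the tips. The cause was not tested. The labels do not say that the title numbers pair the libraries, and the correlation across genes of the within-group differences was 0.15. With the number as a replicate block the Clic4 difference was -1.30 and 0 genes were called. Depth limits Clic3, Clic5 and Clic6, which had at most 24 reads in a library.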

Other observations

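Clic4, Clic5 and Clic6 each lie beside a Runx gene in GRCm38, with 0 coding genes between them, and near an Rcan gene, an inhibitor of calcineurin. These neighbours were chosen after the annotation was seen. Runx3 lies 35.98 kb from Clic4, Runx2 215.8 kb from Clic5 and Runx1 60.2 kb from Clic6. Runx1, a transcription factor, measured 308 and 387 CPM at the tips and 951 and 474 CPM in the ducts. Runx3 measured 3.5 and 3.45 CPM at the tips and 14.1 and 6.60 CPM in the ducts. Runx1 and Runx3 were thus higher in both duct libraries, while Clic6, the member beside Runx1, overlapped. Of all tested genes 11.1% were higher in both duct libraries and 28.5% in both tip libraries. Runx2 overlapped, with 53.6 and 32.2 CPM at the tips and 26.8 and 50.1 CPM in the ducts. Rcan3, 139.5 kb from Clic4, went the other way, with 15.3 and 10.95 CPM at the tips and 3.2 and 2.65 CPM in the ducts. Rcan2, 149.1 kb from Clic5, was higher in both duct libraries, with 3.5 and 5.75 CPM at the tips and 8.95 and 23.1 CPM in the ducts. Rcan1, 14.9 kb from Clic6, overlapped, with 58.4 and 145 CPM at the tips and 60.6 and 179 CPM in the ducts. None passed the limma test, with adjusted p of 0.667 for Runx1, Rcan2 and Rcan3, 0.668 for Runx3, 0.941 for Runx2 and 0.967 for Rcan1. Runx1 overlaps the exons of a gene on the opposite strand, as does Runx2.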
